A study of Mus musculus with 13 samples.

Results

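The 10 genes described here code mostly for structural proteins wrapped around the axoneme of the mouse sperm tail. Among them is 1 gene for a protein of the capsule of the midpiece mitochondria. Odf1, Odf2 and Odf4 are of the outer dense fibres, and Akap3, Akap4, Ropn1, Ropn1l and Cabyr of the fibrous sheath. The others are the fascin gene Fscn3 and the capsule gene Smcp. Nothing used here places the Fscn3 protein around the axoneme. The 10 genes were chosen by name for these structures, with earlier results of these data known. All 10 were found among the 25965 genes of the deposited table of testis RNA. Each had a value in all 13 libraries and passed the filter on low values, an average of 1 RPM or more (RPM are reads scaled to one common library total), which left 16235 genes for the tests.

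A sperm tail is driven by the axoneme, a bundle of microtubules. Outer dense fibres lie along the outside of the microtubule doublets and stiffen the tail, and mitochondria wind around them in the midpiece. Further back the fibrous sheath, made of longitudinal columns joined by ribs, takes the place of the mitochondria and holds enzymes of glycolysis and anchors of protein kinase A (PKA). The parts are built in the spermatids, the haploid cells that turn into sperm, and many of their mRNAs are made some time before the protein.

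Each library came from the whole testis of an adult mouse aged 15 weeks, with the tunica removed, in the study of the gene Wfdc15a. The libraries labelled Wfdc15a knockout (KO) numbered 6. The controls, as the design text of the series groups them, were 4 heterozygous (Het) and 3 wild-type (WT) libraries, 7 in all. The sample titles also carry a number. It is 1 for KO replicates 1 to 3 and Het replicate 1 and 2 for KO replicates 4 to 6, Het replicates 2 to 4 and the WT replicates, and nothing used here says what it stands for. How the knockout allele was made is not given either. The design text counts mice, so each library was taken as a separate animal.

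The libraries labelled KO held 4.22 to 8.23 M reads on listed genes and the controls 5.64 to 10.1 M, so that 1 read was worth 0.0899 to 0.222 RPM. The 10 genes had 172 to 43682 reads per library, and counting error was not compared with the spread between libraries. Wfdc15a RNA was present in every library, at 48.1 to 81.3 RPM in those labelled KO of number 2, at 19.4 to 33.4 RPM in those of number 1 and at 53.5 to 85.8 RPM in the controls. The number 2 libraries were thus not separated from the controls by the targeted gene (log2 difference -0.11, adjusted p = 0.741), and all 6 are called libraries labelled KO here.

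Of the 10 genes 7 fell in the libraries labelled KO against the controls, none rose and 3 did not pass the test, and these counts were 10, 0 and 0 with median-of-ratios scaling and 6, 0 and 4 with quantile normalization. Among all genes tested 6.18% were called lower and 18.4% higher. The calls are from limma on log2(RPM + 1) with the Benjamini-Hochberg adjustment over all 16235 genes, at an adjusted p under 0.05. The median log2 difference of the 10 genes was -0.44, and that of all genes tested was 0.16. The median of all genes moved to 0.02 with median-of-ratios scaling and to -0.01 with quantile normalization. The differences given here are of RPM, a scale on which the median gene stood 0.16 higher in libraries labelled KO. Summed over the 10 genes, the libraries labelled KO held 7200 to 8757 RPM and the controls 10905 to 12287 RPM, and the groups did not overlap. For 6 of the 10 genes every library labelled KO lay below every control, as it did for 2.89% of all genes tested. In bulk tissue fewer cells of a type and less RNA per cell cannot be told apart.

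**Figure D1:**
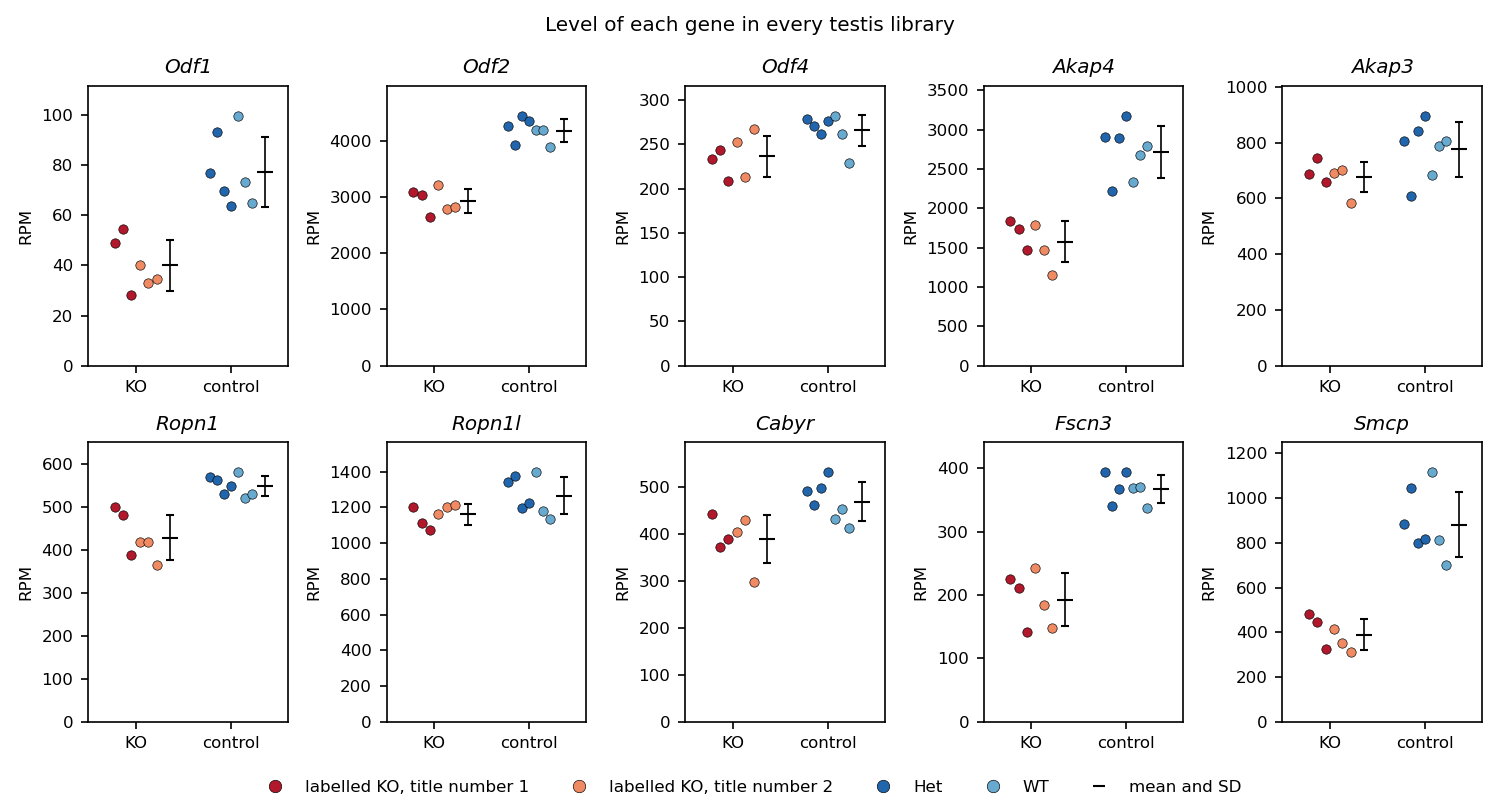
Level of each of the 10 genes in RPM (y axis, from 0) in the 6 libraries labelled KO and the 7 controls, with a point for each library coloured by genotype and title number, and the mean with SD as a bar. For Odf1, Odf2, Akap4, Ropn1, Fscn3 and Smcp all 6 libraries labelled KO lie below all 7 controls, and for Odf4, Akap3, Ropn1l and Cabyr the groups overlap.

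The outer dense fibre genes moved by unequal amounts. Odf1, a small cysteine-rich protein and main component of the fibres, had 28.1, 37.4 and 54.6 RPM as its lowest, median and highest value in the libraries labelled KO, against 63.5, 73.2 and 99.6 RPM in the controls. All 6 libraries labelled KO lay under all 7 controls. Odf1 averaged 40.0 ± 10.1 RPM in libraries labelled KO (SD, n = 6) and 77.2 ± 14.0 RPM in controls (n = 7), which is 1.93-fold lower (log2 difference -0.95, SE 0.148, adjusted p = 0.00011).

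Odf2, a coiled-coil protein of the fibres that is also found at centrosomes in many other cells, was the most abundant of the 10 in RPM. Its lowest, median and highest values were 2642, 2927 and 3214 RPM in libraries labelled KO, against 3890.1, 4202 and 4445 RPM in controls. The groups were again apart, with little spread inside each. The fall was 1.43-fold, smaller than that of Odf1 (log2 difference -0.52, SE 0.0591, adjusted p = 6.23e-06).

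Odf4, also named for the outer dense fibres, had 208, 238 and 268 RPM in libraries labelled KO and 229, 271 and 282 RPM in controls as lowest, median and highest. The groups overlapped, with 5 of 6 libraries labelled KO below the control mean. The log2 difference of -0.17 (95% interval -0.33 to -0.01) did not pass the test (adjusted p = 0.115), and it did with median-of-ratios scaling (-0.32, adjusted p = 0.00743). Over the 23 alternatives it lay between -0.32 and -0.10, with a limma adjusted p of up to 0.529, and passed in 1 of them.

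These 3 genes therefore stood in other proportions to each other. The log2 ratio of Odf4 to Odf1 averaged 2.60 ± 0.328 in libraries labelled KO and 1.80 ± 0.215 in controls, and all 6 libraries labelled KO lay above all 7 controls. The difference of 0.80 had a two-sided exact permutation p of 0.000583, the smallest that 6 libraries against 7 can give (adjusted p = 0.00175 over the 6 ratios compared here). The log2 ratio of Odf1 to Odf2 averaged -6.23 ± 0.284 in libraries labelled KO and -5.78 ± 0.278 in controls, with overlap. That difference of -0.45 (exact permutation p = 0.0181, adjusted p = 0.0181) was -0.30 without WT replicate 1 and Het replicate 2, the controls with the most reads and the highest Odf1, and the call was lost (adjusted p = 0.0628).

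Akap4 and Akap3 code for the A-kinase anchoring proteins that make up most of the fibrous sheath. Akap4, on the X chromosome, gives its main structural protein, and Akap3 an earlier component that stays in the ribs. Akap4 had 1159, 1603 and 1843 RPM in libraries labelled KO and 2228, 2798 and 3176 RPM in controls as lowest, median and highest. The highest library labelled KO was below the lowest control. Its mean was 1577 ± 261 RPM in libraries labelled KO and 2716 ± 335 RPM in controls, 1.73-fold lower (log2 difference -0.79, SE 0.1003, adjusted p = 1.48e-05).

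Akap3 had 583, 688 and 744.5 RPM in libraries labelled KO and 608, 805 and 895 RPM in controls. All 6 libraries labelled KO lay below the control mean and 1 of them below the lowest control. The log2 difference of -0.19 (SE 0.0842) did not pass the test (adjusted p = 0.108), and it did without Het replicate 2, the control with the least Akap3 (-0.25, adjusted p = 0.0217), and also under median-of-ratios scaling (-0.34, adjusted p = 0.00901). Over the 23 alternatives it lay between -0.34 and -0.02, with a limma adjusted p of up to 0.871, and passed in 3 of them.

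The ratio of the pair was nearly fixed among the controls. The log2 ratio of Akap4 to Akap3 lay between 0.99 and 1.42 in libraries labelled KO and between 1.76 and 1.87 in controls. Controls as far apart in Akap4 as 2228 and 3176 RPM thus had almost the same ratio, and every library labelled KO was below it. The means were 1.21 ± 0.170 in libraries labelled KO and 1.81 ± 0.0423 in controls, a difference of -0.60 (two-sided exact permutation p = 0.000583, adjusted p = 0.00175).

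The starts of Akap3 and Akap4 are shown because these neighbours in the sheath moved by unequal amounts while their windows share a run of letters. The RefSeq promoter windows (build GRCm38.p6, the assembly called mm10) run from 250 bases before to 50 bases after each RefSeq start. Base 251 is the first base of the gene by that start, which for some genes is not the start in the deposited coordinates. In the following lines capitals mark the 20 bases that both windows hold.
Akap4, chrX:7067265-7067564, plus strand: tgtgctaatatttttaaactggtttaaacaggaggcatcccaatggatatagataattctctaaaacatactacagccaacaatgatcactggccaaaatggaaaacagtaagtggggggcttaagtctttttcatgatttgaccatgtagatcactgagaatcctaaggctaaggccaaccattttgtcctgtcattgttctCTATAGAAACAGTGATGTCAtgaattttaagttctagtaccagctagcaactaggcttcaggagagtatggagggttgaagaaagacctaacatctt
Akap3, chr6:126852848-126853147, plus strand: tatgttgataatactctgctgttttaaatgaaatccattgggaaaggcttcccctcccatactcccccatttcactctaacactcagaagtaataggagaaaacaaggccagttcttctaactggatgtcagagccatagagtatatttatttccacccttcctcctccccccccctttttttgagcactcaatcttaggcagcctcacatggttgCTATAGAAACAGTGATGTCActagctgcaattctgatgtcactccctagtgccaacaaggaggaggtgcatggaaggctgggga
The run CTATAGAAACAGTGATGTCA stood 47 to 28 bases before the start in Akap4 and 34 to 15 bases before it in Akap3, on the strand of the gene. It was the longest run the windows have in common, and on either strand it was in 2 of the 32851 RefSeq windows (0.00609%). It was noticed after the sequences had been seen, and no factor is assigned to it. The 2 genes that hold it did not change alike, with log2 differences of -0.79 for Akap4 and -0.19 for Akap3.

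**Figure D2:**
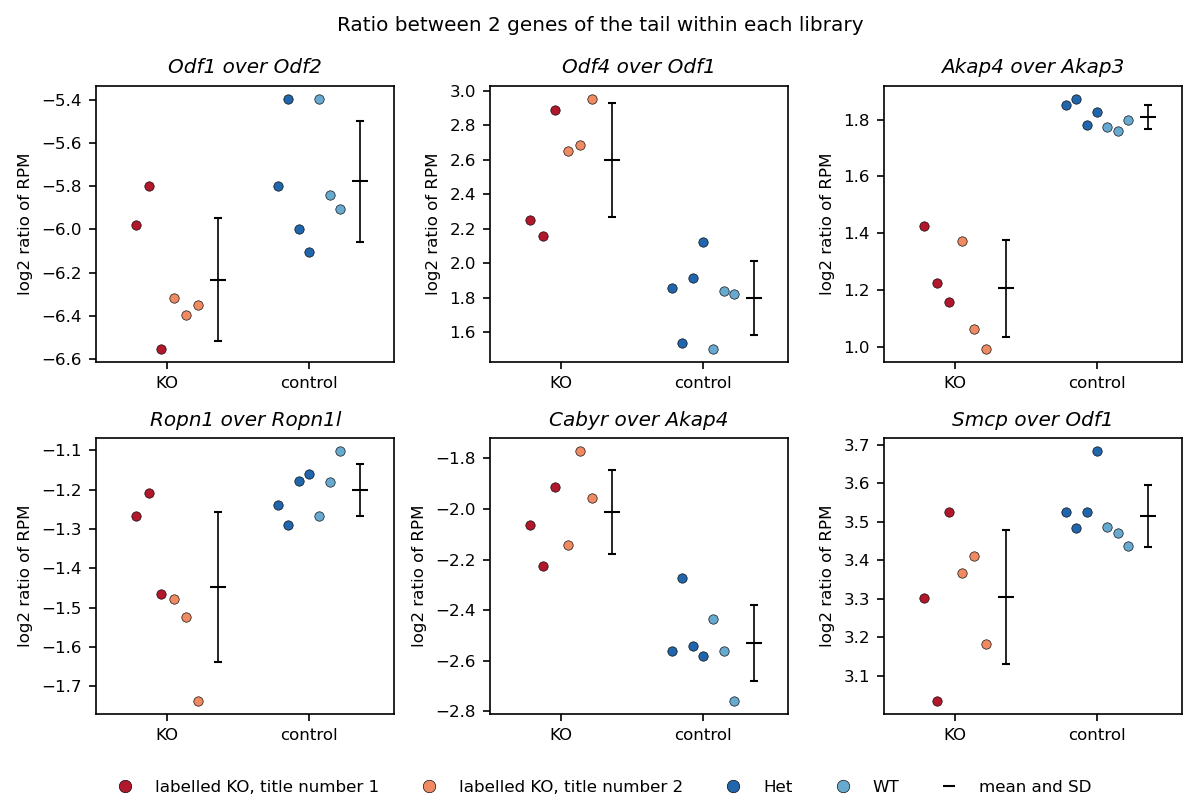
Log2 ratio of RPM (y axis, not starting at 0) between 2 of the genes within each library, for 6 pairs, with a point per library coloured by genotype and title number and the mean with SD as a bar. For Odf4 over Odf1, Akap4 over Akap3 and Cabyr over Akap4 the 6 libraries labelled KO and the 7 controls do not overlap, and the difference in Smcp over Odf1 changed sign with quantile normalization.

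Ropn1, Ropn1l and Cabyr code for proteins with a docking domain like that of the regulatory subunit of PKA, through which they bind the A-kinase anchoring proteins. Ropn1 (ropporin) had 364, 418 and 499 RPM in libraries labelled KO and 519, 548 and 580.3 RPM in controls as lowest, median and highest. The groups did not overlap, and the controls were close together. Ropn1 averaged 428 ± 52.6 RPM in libraries labelled KO and 548 ± 22.9 RPM in controls, 1.29-fold lower (log2 difference -0.36, SE 0.0750, adjusted p = 0.00136).

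Its close relative Ropn1l had 1072, 1182 and 1215 RPM in libraries labelled KO and 1137, 1224 and 1396 RPM in controls. Most of the libraries labelled KO were within the range of the controls, 2 of 6 being below the lowest. The log2 difference of -0.12 (95% interval -0.25 to 0.01) did not pass the test (adjusted p = 0.183). It was -0.27 with median-of-ratios scaling, where it passed (adjusted p = 0.00836), and 0.019 with quantile normalization (adjusted p = 0.864). The log2 ratio of Ropn1 to Ropn1l averaged -1.45 ± 0.191 in libraries labelled KO and -1.20 ± 0.0661 in controls, a difference of -0.24 (two-sided exact permutation p = 0.00641, adjusted p = 0.00839). KO replicates 1 and 2, at -1.27 and -1.21, were inside the range of the controls, -1.29 to -1.10, and the other 4 below it.

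Cabyr, a calcium-binding protein of the sheath, had 299, 397 and 441 RPM in libraries labelled KO and 413, 461 and 531 RPM in controls. Of the libraries labelled KO 4, KO replicates 2, 3, 4 and 6, were below the lowest control. Cabyr fell 1.21-fold (log2 difference -0.27, SE 0.0870, adjusted p = 0.0255). The call rested on few libraries and ended without KO replicate 6 (-0.20, adjusted p = 0.0537), Het replicate 4 (-0.24, adjusted p = 0.0574) or Het replicate 3 (-0.26, adjusted p = 0.0512), as it did with title number 2 only (-0.31, adjusted p = 0.0980), with no filter on low genes (-0.27, adjusted p = 0.0507) and with quantile normalization (-0.15, adjusted p = 0.249).

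Akap4 and its partner Cabyr thus fell unequally. The log2 ratio of Cabyr to Akap4 averaged -2.01 ± 0.165 in libraries labelled KO and -2.53 ± 0.149 in controls, a difference of 0.52 (two-sided exact permutation p = 0.00117, adjusted p = 0.00233). All 6 libraries labelled KO, at -2.22 or higher, were above all 7 controls, at -2.27 or lower.

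Fscn3 belongs to the fascins, which bundle actin filaments, and is the form made in the testis. It had 141, 198 and 243 RPM in libraries labelled KO and 336, 369 and 394 RPM in controls as lowest, median and highest. The groups were far apart, with the highest library labelled KO well under the lowest control. Fscn3 averaged 192 ± 41.7 RPM in libraries labelled KO and 367 ± 22.6 RPM in controls, 1.94-fold lower (log2 difference -0.96, SE 0.1097, adjusted p = 6.23e-06). The gene overlaps Gcc1 in the table, and which strand was counted is not given in the sources. Gcc1 itself averaged 110 RPM in libraries labelled KO and 107 RPM in controls, and how reads of the shared part were assigned was not tested.

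Smcp codes for the cysteine-rich protein of the mitochondrial capsule, whose mRNA is stored in round spermatids and translated in elongating ones. It showed the largest difference of the 10 genes. Its lowest, median and highest values were 314, 384 and 484 RPM in libraries labelled KO, against 701, 816 and 1116 RPM in controls. No library labelled KO came near the controls. Smcp averaged 389 ± 69.8 RPM in libraries labelled KO and 882 ± 147 RPM in controls, 2.26-fold lower (log2 difference -1.18, SE 0.113, adjusted p = 1.09e-06). The log2 ratio of Smcp to Odf1 averaged 3.30 ± 0.174 in libraries labelled KO and 3.52 ± 0.0806 in controls (difference -0.21, two-sided exact permutation p = 0.00699, adjusted p = 0.00839). With quantile normalization it was 0.065 higher in libraries labelled KO (exact permutation, adjusted p = 0.457), so the order of these 2 falls was not kept under that normalization.

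The starts of Smcp and Odf2, the genes with the largest and one of the smaller falls among those whose groups did not overlap, are shown for their unlike composition. Capitals mark TGATGTCA in Smcp, the longest run its window shares with those of Akap3 and Akap4, and TGACG in Odf2, a part of the cAMP response element, the binding sequence of the spermatid activator CREM.
Smcp, chr3:92589024-92589323, minus strand: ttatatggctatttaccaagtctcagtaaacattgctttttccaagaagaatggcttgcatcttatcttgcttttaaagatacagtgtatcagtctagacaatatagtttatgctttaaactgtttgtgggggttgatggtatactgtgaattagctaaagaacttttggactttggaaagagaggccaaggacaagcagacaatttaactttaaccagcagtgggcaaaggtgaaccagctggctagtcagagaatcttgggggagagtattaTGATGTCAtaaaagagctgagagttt
Odf2, chr2:29889470-29889769, plus strand: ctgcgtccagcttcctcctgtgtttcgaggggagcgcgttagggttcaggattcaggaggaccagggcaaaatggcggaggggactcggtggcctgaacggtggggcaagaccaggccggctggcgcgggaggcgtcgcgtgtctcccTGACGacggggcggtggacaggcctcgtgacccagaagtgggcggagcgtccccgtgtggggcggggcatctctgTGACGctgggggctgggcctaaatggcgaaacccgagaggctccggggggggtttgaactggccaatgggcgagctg
The windows of 8 of the 10 genes were used, without Odf1 and Cabyr. The Odf2 windows, of which there are 4, were rich in G and C (68.0% to 74.3%) and held 26 to 43 CpG pairs. That of Ropn1l had 58.0% and 22 pairs, and those of the other 6 genes had 38.0% to 51.7% and 0 to 3 pairs, while the median over all 32851 windows was 52.7% and 7 pairs. The Smcp window has 38.0% and no CpG pair. The 8 letters TGATGTCA, also noticed after the sequences had been seen, were on either strand in 3.62% of all windows. In Smcp they lie 25 to 32 bases after the RefSeq start, but the whole window lies before the start in the deposited coordinates (92588997, minus strand). The Odf2 windows all lie inside the gene in those coordinates (29889221 to 29931746). The Akap3 window has a second copy of TGATGTCA across its start, left in lower case above. TGACG was in 20.8% of all windows on either strand and, of the 8 genes, in Odf2 alone. TATAAA, the TATA box, was in 13.6% of windows and, of the 8, in Fscn3 alone. There it was on the opposite strand, 74 to 69 bases before the RefSeq start. Windows without these letters say nothing of the factors.

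The order of the libraries within a group was not the same for all 10 genes. WT replicate 1 and Het replicate 2, the deepest controls, were the 2 highest controls for 3 genes (Odf1, Ropn1l and Smcp) and the 2 lowest for 2 others (Akap3 and Akap4). Among the libraries labelled KO, KO replicate 3 was lowest for 5 genes and KO replicate 6 for the other 5. KO replicate 6 had the least Akap3, Akap4, Ropn1, Cabyr and Smcp and at the same time the most Odf4 and Ropn1l of its group. Each library labelled KO was below the lowest control for at least 6 of the 10 genes, KO replicate 1 for 6 of them and KO replicate 3 for 9.

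Levels can be compared between genes only per length, here as RPM per kilobase (kb) of all annotated exons. On this scale the order in controls began with Ropn1l (1321 ± 109), Smcp (966 ± 161) and Akap4 (897 ± 111), whose ranges overlapped from one to the next. Odf2 (422 ± 21.1) and Ropn1 (408 ± 17.1) followed and did not differ beyond their spread, nor did Akap3 (246 ± 31.1) from Odf4 (228 ± 15.5) or Cabyr (187 ± 16.3) from Fscn3 (176 ± 10.8). Odf1 was lowest at 69.9 ± 12.7. In libraries labelled KO the values were 1213 ± 60.3 for Ropn1l, 427 ± 76.4 for Smcp and 521 ± 86.3 for Akap4, so that Akap4 stood before Smcp, and 36.2 ± 9.16 for Odf1. Odf2 has 25 annotated transcripts and 9919 bases of exon in all, which lowers its value on this scale.

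**Figure D3:**
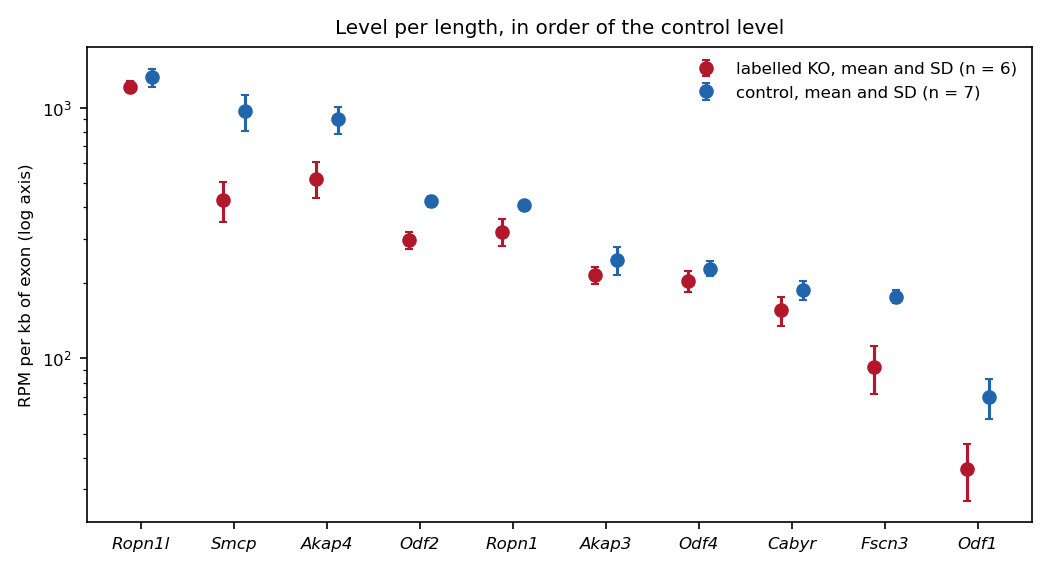
Level of each gene in RPM per kb of annotated exon (log axis) as mean and SD, for libraries labelled KO (n = 6) and controls (n = 7), with genes in the order of the control level. Ropn1l is highest and nearly equal in both groups (1213 and 1321), and Odf1 is lowest (36.2 and 69.9).

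The make-up of the summed RNA of the 10 genes shifted accordingly. Odf2 gave 36.6 ± 1.39% of their reads in libraries labelled KO and 36.2 ± 0.747% in controls. Akap4 gave 19.6 ± 1.87% in libraries labelled KO and 23.5 ± 2.27% in controls, and Smcp 4.82 ± 0.485% in libraries labelled KO and 7.65 ± 1.39% in controls. Ropn1l gave 14.6 ± 1.41% in libraries labelled KO, against 11.0 ± 1.04% in controls, while its own level did not pass the test.

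The libraries labelled KO of either title number showed the falls. Against the 7 controls, which both comparisons share, 6 of the 10 genes fell in number 2 (4.64% of all genes were called lower) and 6 in number 1 (5.74%), namely Odf1, Odf2, Akap4, Ropn1, Fscn3 and Smcp. Het replicate 1 is the only control of number 1, so for number 1 the label KO is largely mixed with the title number. With libraries of title number 2 only, KO against control, the same 6 genes fell. Smcp had a log2 difference of -1.28 in number 2 and -1.08 in number 1, and Akap4 one of -0.90 in number 2 and -0.69 in number 1. Ropn1 had -0.46 in number 2 and -0.27 in number 1, and Fscn3 -0.96 and -0.95. Cabyr did not pass in either (-0.32, adjusted p = 0.0505 in number 2, and -0.22, adjusted p = 0.137 in number 1). Tested directly, number 2 against number 1, limma called none of the 10 genes, none had an unadjusted p under 0.05, and limma-voom called none, while 0.179% of all genes were called. Their log2 differences were -0.23 to 0.10, and the widest 95% interval, that of Odf1, was -0.67 to 0.21. Wfdc15a was 1.10 higher in number 2 than in number 1 in the same fit (adjusted p = 0.0486).

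**Figure D4:**
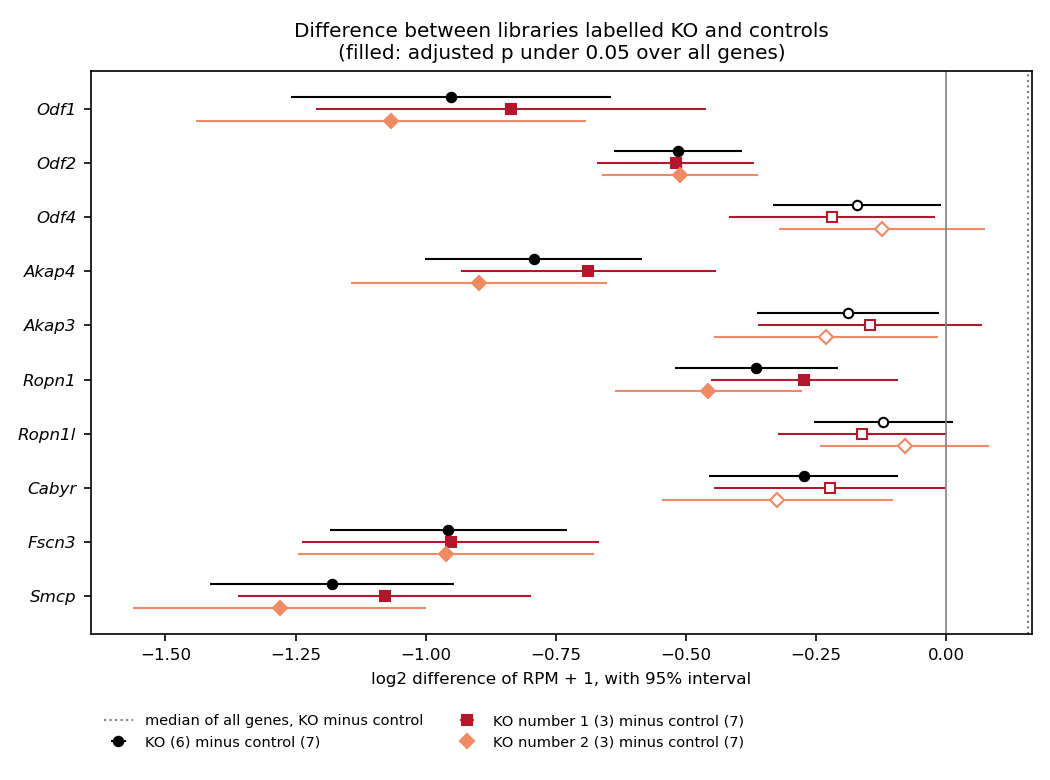
Log2 difference of RPM + 1 with its 95% interval (x axis) for each gene, for all 6 libraries labelled KO and for the 3 of each title number, each minus the same 7 controls. Filled symbols passed the test over all genes. The dotted line is the median of all genes tested (0.16), and each symbol of the 10 genes lies left of 0, which for Ropn1l did not hold with quantile normalization (0.019 for all 6 libraries).

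The kinds of control were compared as well. In Het against WT limma called none of the 10 genes and none of all genes tested (0%), with 0 of the 10 and 957 of all genes at an unadjusted p under 0.05, and limma-voom called none of either. The log2 differences were -0.05 to 0.19, and the widest interval, that of Odf1, was -0.49 to 0.38. Cabyr had the largest difference, with 495 ± 28.8 RPM in Het (n = 4) and 433 ± 20.3 RPM in WT (n = 3), a log2 difference of 0.19 (95% interval -0.05 to 0.43, adjusted p = 0.916). Against Het alone 7 of the 10 genes fell in libraries labelled KO (5.15% of all genes were called lower), and against WT alone 6 fell (3.34%), Cabyr being the one that did not pass (-0.16, adjusted p = 0.360). Both comparisons use the same libraries labelled KO.

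Genes of the same structures that are not among the 10 fell in part. The counts of each tail list stand beside 6.18% of all genes tested called lower and 18.4% called higher. Of 14 other fibrous sheath genes, all tested, 7 fell and 1 rose, with a median log2 difference of -0.28. They include glycolytic enzymes bound to the sheath. Hk1, hexokinase, fell by 0.69 on the log2 scale (adjusted p = 7.22e-06), with 925 ± 124 RPM in libraries labelled KO and 1490 ± 125 RPM in controls, and it overlaps the listed gene 2210417K05Rik, which averaged 50.2 RPM in libraries labelled KO and 79.7 RPM in controls. Gapdhs, the sperm form of glyceraldehyde-3-phosphate dehydrogenase, fell by 0.73 (adjusted p = 0.000195), and Pgk2, the testis form of phosphoglycerate kinase, by 0.57 (adjusted p = 9.91e-05). Tcp11, a testis protein found in the tail, fell by 0.54 (adjusted p = 1.35e-05).

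The A-kinase anchoring proteins hold regulatory subunits of PKA. Those among these other fibrous sheath genes, Prkar2a and Prkar1a, went in opposite directions. Prkar2a, of type II, fell by 1.01 (adjusted p = 0.00037), with 73.0 ± 25.8 RPM in libraries labelled KO and 143 ± 26.7 RPM in controls. Prkar1a, of type I, rose by 0.24 (adjusted p = 0.0130), with 373 ± 29.9 RPM in libraries labelled KO and 314 ± 15.8 RPM in controls, and its call was lost with median-of-ratios scaling (0.09, adjusted p = 0.412) and with title number 2 only (0.20, adjusted p = 0.155). Prkar1a was named after its value was seen, as the 1 gene of the list that rose.

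Of 10 other outer dense fibre genes 9 are in the table and 8 were tested, of which 2 fell and none rose, with a median of -0.14, and 5 fell with median-of-ratios scaling. Odf3b, a relative of the fibre gene Odf3, fell by 1.32 (adjusted p = 0.000326), with 8.37 ± 3.63 RPM in libraries labelled KO and 21.5 ± 5.47 RPM in controls. Spag4, whose rat protein binds that of Odf1, fell by 0.30 (adjusted p = 0.00347). Odf3l2 was at 0 reads in every library and was not tested.

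Of 12 genes of the mitochondrial sheath, the structure in which Smcp lies, 11 are in the table and were tested, and 4 fell and none rose, with a median of -0.14. They were Spata18, which takes part in mitochondrial quality control (fell by 0.94, adjusted p = 5.15e-06), Tbc1d21 (fell by 0.54, adjusted p = 5.32e-05), Spata19 (fell by 0.49, adjusted p = 0.00049) and the selenoprotein Gpx4, a main protein of the capsule (fell by 0.44, adjusted p = 0.000492). Spata18 had 438 ± 92.4 RPM in libraries labelled KO and 828 ± 75.8 RPM in controls.

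Of 6 genes of the annulus, the septin ring between midpiece and principal piece, 5 were tested, and 2 fell and 1 rose, with a median of -0.10. Among all genes tested 6.18% were called lower and 18.4% higher, so 1 gene of 5 rising is near the share of all genes. Sept4 fell by 0.37 (adjusted p = 0.0203), with 63.1 ± 9.99 RPM in libraries labelled KO and 81.5 ± 8.85 RPM in controls. It overlaps the listed gene Gm11492, which averaged 63.3 RPM in libraries labelled KO and 88.1 RPM in controls, and for this pair and for Hk1 how shared reads were assigned was not tested. Sept12 fell by 0.22 (adjusted p = 0.0244). Sept6 rose by 0.58 (adjusted p = 0.00881), with 58.1 ± 15.3 RPM in libraries labelled KO and 38.0 ± 6.82 RPM in controls. The calls of Sept6 and Sept12 were lost with quantile normalization (adjusted p = 0.0649 and 0.173) and with title number 2 only (adjusted p = 0.274 and 0.153), that of Sept6 with median-of-ratios scaling (adjusted p = 0.0516) and that of Sept4 with replicate number as block (adjusted p = 0.141). The call of Sept12 also ended without WT replicate 1 (adjusted p = 0.0529), without KO replicate 1 (adjusted p = 0.0541) and without KO replicate 3 (adjusted p = 0.0575), each of which leaves 1 annulus gene called lower.

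**Figure D5:**
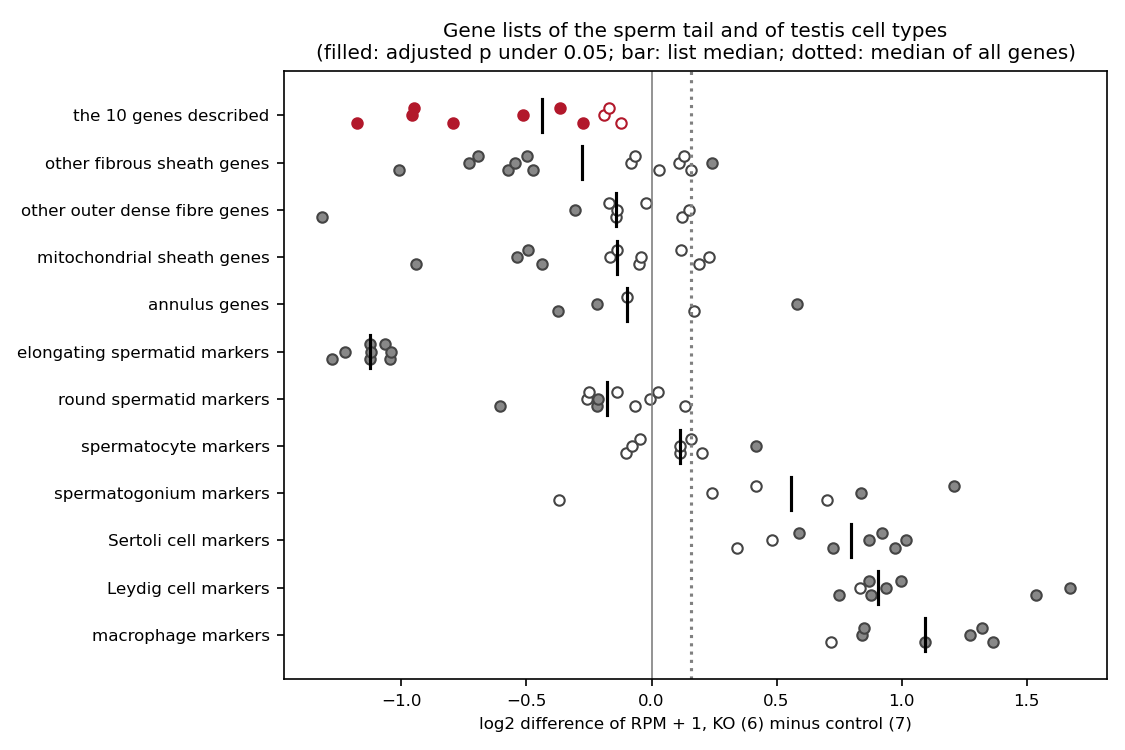
Log2 difference of RPM + 1, libraries labelled KO (6) minus controls (7), with a point for each tested gene of the 10 genes, the other tail lists and the cell type markers, filled where adjusted p was under 0.05, a bar at the median of each list and a dotted line at the median of all genes (0.16). The 10 genes lie between -1.18 and -0.12 (Ropn1l at 0.019 with quantile normalization), the elongating spermatid markers between -1.28 and -1.04.

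The markers of the germ cells gave these values, beside 6.18% of all genes called lower and 18.4% called higher. All 8 elongating spermatid markers fell, with a median of -1.12 and a summed level of 4527 to 7165 RPM in libraries labelled KO and 10998 to 15527 RPM in controls. Of 10 round spermatid markers 3 fell and none rose (median -0.18, summed level 2354 to 2705 RPM in libraries labelled KO and 2773 to 3004 RPM in controls). Of 8 spermatocyte markers 1 rose and none fell (median 0.11, 7788 to 9207 RPM in libraries labelled KO and 7895 to 9205 RPM in controls), and of 6 spermatogonium markers 2 rose and none fell (median 0.56, 157 to 255 RPM in libraries labelled KO and 106 to 156 RPM in controls).

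Most markers of cells that make no sperm tail rose. Of 8 Sertoli cell markers 6 rose and none fell (2321 to 3687 RPM in libraries labelled KO, 1296 to 2173 RPM in controls), of 8 Leydig cell markers 7 rose and none fell (5655 to 9921 RPM in libraries labelled KO, 2351 to 4223 RPM in controls), and of 8 macrophage markers, of which Adgre1 was not analysed here, 6 rose and none fell (119 to 288 RPM in libraries labelled KO, 63.2 to 102 RPM in controls). None of the markers in the table was at 0 in all libraries. The libraries labelled KO with the lowest sums of elongating spermatid markers, KO replicates 3, 5 and 6 (4666, 4618 and 4527 RPM), were also those with the lowest sums of the 10 genes (7317, 7791 and 7200 RPM). Among the controls the 2 sums did not share this order. WT replicate 1 and Het replicate 2 had the highest marker sums (15527 and 14709 RPM), with 11495 and 10906 RPM for the 10 genes. Het replicate 4 had the highest sum of the 10 genes (12287 RPM), with 12059 RPM for the markers. WT replicate 3 was lowest in both (10905 RPM for the 10 genes and 10998 RPM for the markers). The part of the marker shifts in the falls of the 10 genes was not tested.

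The genes whose profile over the 13 libraries was nearest to that of Odf1, by the root mean square distance of centred log2(RPM + 1), were Vasp, a regulator of actin filaments (0.151), Ubl4b (0.161) and Tmem239 (0.165), against a median distance of 0.7104 over all genes tested and 0.163 for Smcp, the nearest of the other 9 genes. Nearest to Akap4 were Spz1, a spermatogenic transcription factor (0.0777), the fatty acid ligase gene Acsl1 (0.0822) and the channel subunit gene Lrrc8b (0.0886). Its nearest among the other 9 genes was Fscn3 (0.168), and the median over all genes tested was 0.626. The distance holds the difference between the groups, and the points share library and depth. Vasp had 35.3 ± 6.24 RPM in libraries labelled KO and 80.4 ± 14.4 RPM in controls, and Spz1 had 885 ± 156 RPM in libraries labelled KO and 1421 ± 158 RPM in controls.

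In the coordinates of the deposited table, which are of mm10, the genes lie apart from each other, on 8 chromosomes. Odf1 is on chromosome 15 (38219203 to 38226735, plus strand) with Ropn1l (31441210 to 31453689, minus strand), and Akap3 on chromosome 6 (126853098 to 126874307, plus strand) with Fscn3 (28427789 to 28438622, plus strand). Odf2 is on chromosome 2 (29889221 to 29931746, plus strand), Odf4 on chromosome 11 (68921835 to 68927081, minus strand) and Ropn1 on chromosome 16 (34649921 to 34678618, plus strand). Akap4 is on the X chromosome (7067519 to 7078609, plus strand), Cabyr on chromosome 18 (12741324 to 12755146, plus strand) and Smcp on chromosome 3 (92583880 to 92588997, minus strand). The RefSeq starts of Akap3, Odf4 and Ropn1l are those of the table, and the RefSeq starts of Akap4, Smcp, Odf2, Ropn1 and Fscn3 differ from it. By the table the Odf2 windows lie inside the gene and the Smcp window lies wholly before the gene, so positions given from RefSeq starts do not carry over. Wfdc15a is on chromosome 2 (164198863 to 164200130, minus strand), and none of the 10 apart from Fscn3 overlaps another listed gene.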

How the data were processed

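RNA of 13 whole testes was measured by RNA-seq. Per the labels, libraries were made by Smart-seq2 from some 2 ng of RNA, with 11 PCR cycles. Per the submitters' processing notes, FastQC 0.11.8, Trim Galore 0.6.6 and mm10 were used. No source names the aligner, the counting program or its strand setting. The authors deposited 1 table of log2 RPM values. In each library its lowest value equals 0.9 read and marks genes with none, which were set to 0 RPM. At least 99.96% of the other values of a library were whole reads, within 0.01 read.

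The 10 genes and the lists of other genes were chosen with earlier results of these data known. Groups came from the labels. Differences were fitted with limma 3.58.1 (R 4.3.3, mean-variance trend, two-sided) on log2(RPM + 1), a pseudocount of 1 RPM, over the 16235 genes that average 1 RPM or more, with Benjamini-Hochberg adjustment and a threshold of 0.05. Such differences understate the change of low genes. KO and control were 2 groups in the main comparison, KO, Het and WT in a second fit, and KO of each title number and control in another. Ratios of 6 chosen pairs of the 10 genes were tested by exact permutation over all 1716 splits. Their adjusted p covers those 6 pairs alone, not all pairs that the genes could form. The fit was tested on simulated data. Named were the 10 genes, up to 5 called genes of each other tail list by adjusted p, and the 3 genes nearest to Odf1 and to Akap4. The nearest were sought outside the 10 and without genes of a Gm number, Rik or LOC symbol. Alternatives were 2 other scalings, pseudocounts of 0.1 and 0.5 RPM, no filter and a filter of 5 RPM, limma-voom on the recovered reads, a replicate block, title number 2 only and leaving out each library. Exon lengths are from GENCODE M21 and promoter windows from RefSeq. PCR copies without molecular identifiers are not independent molecules, so read counts limit precision only for counting error. No 2 libraries of a genotype agreed within sampling noise (24 pairs).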

Additional observations from a re-analysis of the deposited data

Results flagged for a closer look

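For Odf4 the lowest control, WT replicate 3 at 229 RPM, stood apart from the other controls, of which the next was at 262 RPM and the highest at 282 RPM. Its gap was 0.643 of the range of the 7 controls, above the 95% critical value of Dixon's test for 7 samples. The other controls were thus close together, and the libraries labelled KO of this gene reached 208 to 268 RPM. It was the 1 value set apart in this way among 30 sets of samples looked at for the 10 genes, and chance sets apart about 1 in 20. The test looked only at sets of 4 or more samples.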

How the results depend on the processing

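Over 23 alternatives the number of the 10 genes that fell in libraries labelled KO against controls was 6 to 10, and 6 to 8 when 1 library was left out. For the other comparisons 20 alternatives were run. The number was 5 to 6 against WT, 5 to 10 against Het, 5 to 9 for number 1 and 5 to 8 for number 2. It was 0 in Het against WT and in number 2 against number 1. Odf1, Odf2, Akap4, Ropn1, Fscn3 and Smcp fell under every one of the 23. With quantile normalization Ropn1l changed sign (0.019), as did the ratio of Smcp to Odf1 (0.065), and the cause was not tested. Of all genes 2994 were called higher and 1003 lower, against 1711 and 1717 with median-of-ratios scaling and 1462 and 1532 with quantile normalization. The other outer dense fibre genes called lower numbered 5 with median-of-ratios scaling (2 as reported above). The annulus genes called lower numbered 1 with quantile normalization, with replicate number as block, with title number 2 only and without WT replicate 1 and Het replicate 2 (chosen after seeing the data), and 1 to 2 with 1 library left out. Libraries with the same replicate number showed little shared deviation (r of -0.08 to 0.13 over 10 pairs). The 1 pair over 0.1 was Het replicate 1 with KO replicate 1, both of title number 1. Such correlations cannot exclude a pairing of the samples by number, and the main comparison assumed none. With replicate number as block 7 of the 10 genes fell, and 985 genes were called lower and 2845 higher.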
